A study of Caenorhabditis elegans with 2 samples.

Results

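The large subunit ribosomal protein genes of the nematode Caenorhabditis elegans were examined for binding of the transcription factor SKN-1. The genes were taken by name, as protein-coding genes called rpl or rla followed by a number in the Ensembl annotation of the WBcel235 (ce11) assembly, and there were 50 of them among 19973 protein-coding genes. Binding was measured by ChIP-seq, in intact larvae at the first larval stage (L1), with 2 biological replicates of 1 group. The worms were of strain OP178, genotype unc-119(ed3) III; wgIs178, in which wgIs178 is an integrated transgene carrying skn-1 tagged with eGFP, and both sexes were mixed. The tagged protein came from this transgene, so the signal is that of the added copy in all cells of the larva that made it, and binding in different tissues cannot be told apart. No other condition was measured, and no ChIP of worms without the tag was analysed here, so the specificity of the peaks was not tested.

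Large subunit proteins wrap the ribosomal RNAs of the 60S particle, the part of the ribosome that joins amino acids and through which the new chain leaves. Most genes named rpl encode its core and surface proteins, and the rla genes encode the stalk that binds the translation factors. Their promoters are among the most active in growing cells, and worm ribosomal protein genes can be transcribed alone, from a promoter facing another gene, or behind another gene on the same strand, where a shared transcript is cut by trans-splicing. SKN-1 is the worm relative of the mammalian Nrf factors, known for the response to oxidative stress and for embryonic endoderm, and it contacts DNA as a monomer at GTCAT or ATCAT with A/T-rich sequence beside it.

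The deposited lists held 3484 optimal peaks, chosen by the authors for agreement between replicates, 27729 regions from both replicates pooled, and 30000 regions from each replicate, the last 3 including background. A gene was called bound when the summit of an optimal peak lay from 1000 bp upstream to 200 bp downstream of any of its annotated transcript starts. Each peak has a signal value given by the authors, used to rank peaks within 1 list, with rank 1 the highest. Of the 50 genes, 43 (86.0%) were bound, against a background of 15.1% of all protein-coding genes. The 95% Wilson interval of that share is 73.8% to 93.0% and covers the counting of genes only. Restricting the list to its 1742 strongest peaks left 40 of the genes bound, against 8.81% of all genes, and the 696 strongest peaks left 30, against 3.93%.

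The sequences under the 6 strongest of these peaks are shown because they cover the highest ranks, and those of a pair of the weakest because they mark the other end. Each is 151 bases long, centred on the optimal summit, written on the strand of the gene and read from the RefSeq sequence of WBcel235. They lie at chrX:2242915-2243065, chrIII:7854613-7854763, chrIII:3867485-3867635, chrIV:4749993-4750143, chrIV:654850-655000, chrII:14154474-14154624, chrIV:12268483-12268633 and chrIV:13370448-13370598, on the minus strand for rpl-11.2, rpl-20, rpl-15 and rla-2 and on the plus strand for the others. Capitals mark the SKN-1 half-sites GTCAT and also ATCAT on either strand, and the 6-base words GAGACC, then ACCGTA, then CCTAAA, also on either strand, which are described further on.
rpl-11.2: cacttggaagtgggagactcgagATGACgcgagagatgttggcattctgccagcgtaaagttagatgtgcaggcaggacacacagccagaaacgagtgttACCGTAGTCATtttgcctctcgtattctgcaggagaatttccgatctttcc
rpl-35: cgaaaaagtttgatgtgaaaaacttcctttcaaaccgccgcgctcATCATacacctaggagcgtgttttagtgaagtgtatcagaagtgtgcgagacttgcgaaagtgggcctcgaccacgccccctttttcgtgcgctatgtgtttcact
rpl-3: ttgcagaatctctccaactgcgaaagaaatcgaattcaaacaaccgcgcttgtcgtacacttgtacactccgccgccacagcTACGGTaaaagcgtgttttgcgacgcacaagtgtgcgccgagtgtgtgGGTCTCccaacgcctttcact
rpl-20: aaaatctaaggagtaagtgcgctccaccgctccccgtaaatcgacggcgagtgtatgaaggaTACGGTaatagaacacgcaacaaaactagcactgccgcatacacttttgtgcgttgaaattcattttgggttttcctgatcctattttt
rpl-15: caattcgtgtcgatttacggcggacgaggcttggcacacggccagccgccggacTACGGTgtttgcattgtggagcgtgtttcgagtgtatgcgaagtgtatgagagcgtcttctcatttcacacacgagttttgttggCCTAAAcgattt
rpl-43: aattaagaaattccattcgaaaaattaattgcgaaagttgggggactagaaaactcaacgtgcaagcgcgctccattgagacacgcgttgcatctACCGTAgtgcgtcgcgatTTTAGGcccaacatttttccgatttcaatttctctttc
rpl-34: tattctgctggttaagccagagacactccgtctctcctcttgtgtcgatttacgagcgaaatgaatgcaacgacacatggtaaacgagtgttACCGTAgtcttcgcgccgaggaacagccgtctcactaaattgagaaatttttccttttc
rla-2: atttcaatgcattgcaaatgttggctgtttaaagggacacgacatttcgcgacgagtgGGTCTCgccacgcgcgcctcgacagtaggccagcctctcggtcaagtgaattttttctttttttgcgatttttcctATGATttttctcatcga

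Summits lay upstream of the gene's nearest own start in all 43 cases, with that of rpl-19 inside the gene, between 2 of its starts. The median distance from the summit to that start was 284 bp, with quartiles of 238 and 366.5 bp and a range of 33 to 745 bp. The median over all 3007 bound protein-coding genes was 222 bp, with 95.2% of summits upstream. Between 200 and 450 bp upstream lay 35 of the 43 summits (81.4%), against 32.4% for all bound genes. The band is not particular to these genes, as it held 25 of the 30 summits (83.3%) of bound small subunit genes. It held 40% for bound 60S assembly and nucleolar genes and 15.8% for bound mitochondrial large subunit genes. The limits of the band were not set in advance. The farthest were those of rpl-43 at 745 bp, rpl-41.1 at 584 bp and rpl-35 at 446 bp. The nearest were rpl-12 at 33 bp and rpl-7A at 52 bp. Annotated starts can be those of trans-spliced ends, which lie downstream of where transcription began, and that offset was not tested. In the narrower window of 500 bp upstream to 100 bp downstream, 41 of the 50 genes were bound, against 12.2% of all genes.

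**Figure D1:**
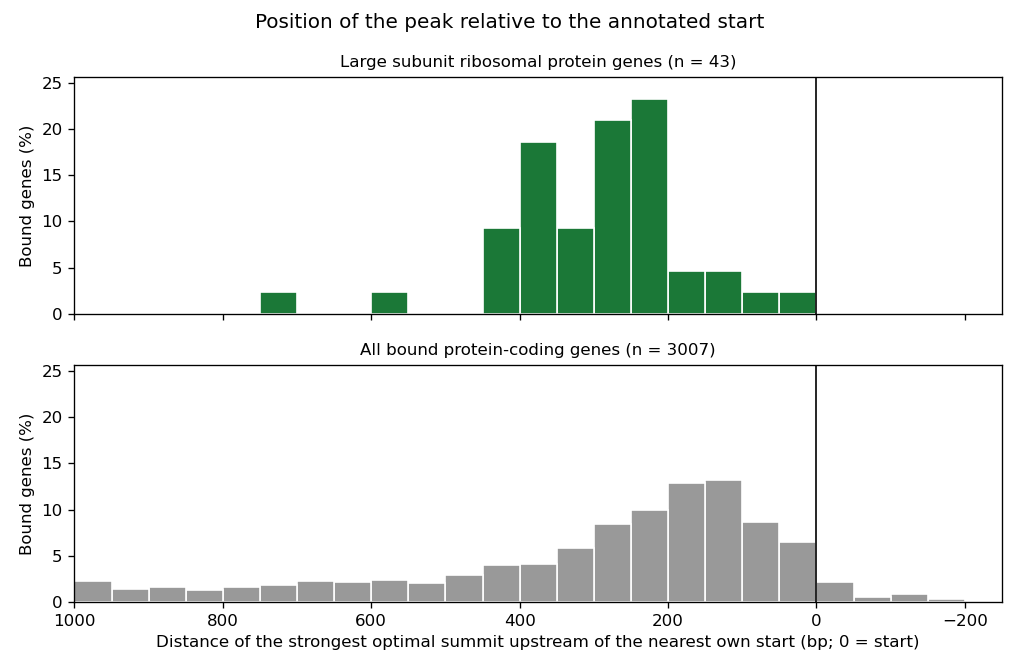
Distance in bp of the strongest optimal summit upstream of the gene's nearest own start, in bins, as a percentage of the 43 bound large subunit genes (upper panel) and of the 3007 bound protein-coding genes (lower panel); negative distances lie downstream. The large subunit genes gather between 200 and 450 bp, where 81.4% of their summits lie, while the bins closest to the start are fuller among all bound genes.

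The strongest peak of the whole group was that of rpl-11.2, whose protein binds 5S rRNA together with that of rpl-5. It ranked 23 of 3484 optimal peaks, with a signal of 383, and 18 in the list of replicate 1 and 27 in that of replicate 2. This peak, at chrX:2242905-2243063, was in no other gene's window, and it lies in the segment of X from 0.5 to 3 Mb where peaks are dense. Leaving it out gave 42 bound genes. The gene rpl-5 ranked 211, and 291 and 218 in replicates 1 and 2, with a summit 415 bp upstream that was shared with the collagen gene col-38. The third gene of the 5S particle, rpl-11.1, was not bound.

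Of the 3 genes for proteins at or near the peptidyl transferase centre, as known from yeast and mammalian ribosomes, rpl-3 stood highest, at rank 40, with ranks of 34 and 61 in replicates 1 and 2. Its summit lay 294 bp upstream at chrIII:3867487-3867634 and was in no other window. The other two, rpl-2 and rpl-10, ranked 1220 and 1509. Among 7 genes for proteins around the opening of the exit tunnel, where the new chain leaves, 6 were bound, with ranks of 38 to 1464. The highest was rpl-35, at rank 38 and at 42 and 41 in the replicates, the narrowest spread among the 12 strongest genes. The exit tunnel wall genes rpl-39, rpl-4 and rpl-17 ranked 372, 503 and 674.

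At the face that meets the small subunit, the 4 genes rpl-23, rpl-24.1, rpl-41.1 and rpl-41.2 were all bound, with a median rank of 282.5. The protein of rpl-23 forms part of the surface that the anti-association factor eIF6 covers in yeast. Its peak ranked 113, and 155 and 118 in replicates 1 and 2, 297 bp upstream and shared with swp-1. Of the stalk and its base, 3 of 4 genes were bound, with ranks of 143 to 2492. The highest, rpl-12, for the base protein, ranked 143, with 251 and 131 in the replicates and a peak shared with lin-54. Next came rla-0, for the P0 protein that anchors the stalk, at rank 865 and 200 bp upstream. The acidic stalk protein gene rla-2 was the weakest bound gene of all, at rank 2492 and at 2334 and 2955 in the replicates, and rla-1 was not bound. The role groups were drawn up after the ranks had been seen, and serve only to order them. Of all 50 genes 86.0% were bound, so the counts bound within these small groups set none of them apart.

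Among the remaining strong genes, rpl-20 ranked 41, with 68 and 38 in replicates 1 and 2, its summit lying 290 bp upstream and in the window of Y17G9B.5 too. The gene rpl-15 ranked 92, with 127 and 81 in the replicates and a summit 349 bp upstream shared with K11H12.8. For rpl-43, a zinc-binding protein gene, the rank was 98, with 67 and 153 in the replicates, and the peak was shared with Y48B6A.1. These 3 and the 3 at ranks 23 to 40 made up the 6 large subunit genes among the 100 strongest peaks, a cut at which all genes were not counted. Then followed rpl-22 at rank 160, with 176 and 224 in replicates 1 and 2 and a summit 238 bp upstream shared with ify-1. The gene rpl-36 ranked 196, with 326 and 182 in the replicates, 404 bp upstream and shared with rps-14 and ndab-2. The gene rpl-33 ranked 212, 394 bp upstream and shared with farl-11. Each of these 6 peaks thus has another gene within reach of the same summit. At the low end above rla-2 stood rpl-34 at rank 1833, with 2611 and 2025 in the replicates, and rpl-41.1 at 1779, with 1887 and 1723. Over the 43 bound genes the median rank was 503, against 1447 for all bound genes, and 3 ranked below the 1742 strongest peaks. The bound genes were spread over all 6 chromosomes, with 15 of 17 on chromosome I, 8 of 9 on II, 7 of 9 on III, 8 of 8 on IV, 4 of 5 on V and 1 of 2 on X. These small counts are to be read beside the 86.0% bound in the whole group.

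**Figure D2:**
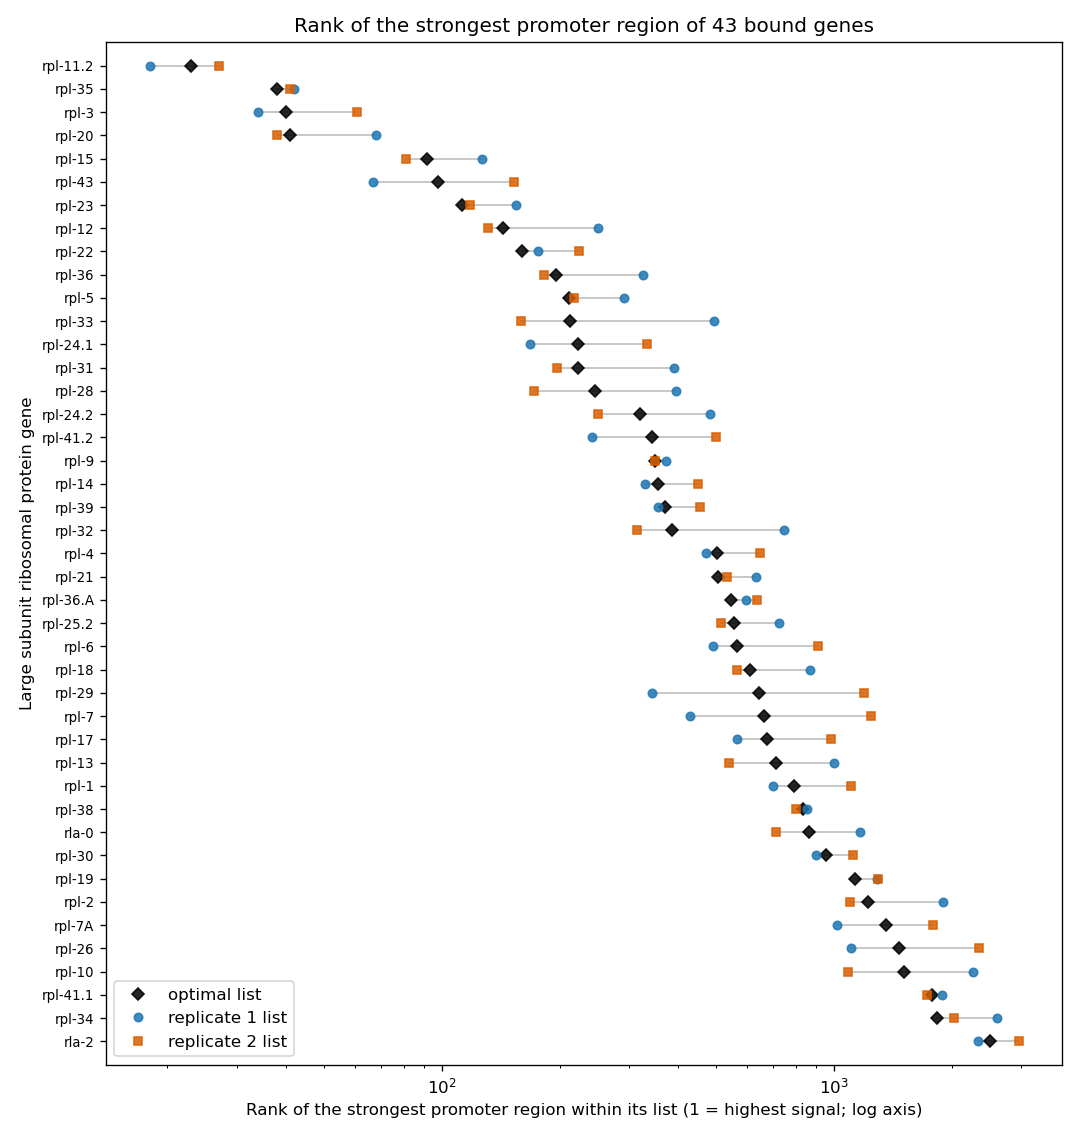
Rank of the strongest promoter region of each of the 43 bound genes in the optimal list (diamonds), the replicate 1 list (circles) and the replicate 2 list (squares), on a log axis where 1 is the highest signal. Genes run from rpl-11.2 at rank 23 to rla-2 at rank 2492, and the replicates place most genes in the same part of the scale.

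All 43 genes had a summit in their windows among the 3484 strongest regions of each replicate. Replicate 1 alone called 43 of the 50, against 14.1% of all genes, replicate 2 alone called 43, against 14.9%, and both together called 43, against 11.5%. The optimal list was itself selected for agreement, so this adds no independent evidence. Summits of the 2 replicates lay a median of 10 bp apart, and 40 of 43 were within 25 bp. The largest gap was 48 bp, at rpl-10, which also was the only gene with more than 1 optimal peak in its window, at 121 bp (rank 1509) and 378 bp (rank 2864) upstream. Ranks in the replicate lists had a Spearman coefficient of 0.827 over the 43 genes, a description of lists that share their control alignment.

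Ranks differed by more than a factor of 2 between replicates for 9 genes. In replicate 1 rpl-29 ranked 343 and in replicate 2 1190, and rpl-7 ranked 429 and 1240 in the same order. The gene rpl-43, at 67 and 153, had the next largest ratio in that direction. In the other direction stood rpl-33, at 495 in replicate 1 and 159 in replicate 2, rpl-32 at 744 and 314, and rpl-28 at 395 and 172. Over the group neither replicate was the higher throughout, with 20 genes ranking higher in replicate 1 and 23 in replicate 2. With ranks from 2 lists, no error can be put on a single gene beyond this spread.

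No optimal peak was the strongest peak of more than 1 large subunit gene, so the 43 genes had 43 distinct peaks. However, 30 of the 43 peaks (69.8%) also lay in the window of some other protein-coding gene, against 52.8% of all bound genes that shared theirs. In 32 of the 50 genes the nearest upstream protein-coding gene was on the opposite strand. Of these 29 were bound, beside 86.0% of all 50, and 28 of them by a peak that the neighbour's window held too. Such a peak cannot be assigned to either gene of the pair. The neighbour was itself a small subunit gene for rpl-24.1 (rps-10), rpl-36 (rps-14) and rpl-39 (rps-30), and for rpl-28 it was the mitochondrial large subunit gene mrpl-49. The peak of rpl-9 was shared with lpd-7, a nucleolar gene. When each peak was given only to the gene with the nearest start, 26 of the 50 genes kept a peak (52.0%), against 11% of all genes. By that rule 60.5% of the bound large subunit genes were the nearest gene to their peak, against 72.9% of all bound genes. Summits lay between genes for 33 of the 43, inside non-coding RNA genes for 7, in an intron for 2 and in a UTR exon of the neighbour pab-1 for rpl-30. The intron cases were rpl-24.2, in C03D6.1, and rpl-19, in its own intron between 2 annotated starts.

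Genes with the same number in their names did not share a rank. The pair rpl-41.1 and rpl-41.2 lie on the same strand of chromosome I and encode identical proteins of 22 residues, the smallest of the ribosome. Their peaks were 1439 bp apart, with rpl-41.2 at rank 343 (242 and 500 in replicates 1 and 2) and rpl-41.1 at 1779 (1887 and 1723). The order of the pair was thus the same in both replicates. The proteins of rpl-11.1 and rpl-11.2, both of 196 residues, are 91.3% identical, yet rpl-11.2 ranked 23 and rpl-11.1 was not bound. At rpl-11.1 a pooled region ranked 6263, with its summit 200 bp upstream, and ranks were 3508 in replicate 1 and 18036 in replicate 2, so replicate 1 placed it 24 ranks past the length of the optimal list. The proteins of rpl-25.1 and rpl-25.2 (147 and 146 residues) are 70.1% identical. There rpl-25.2 ranked 557, with 725 and 515 in the replicates and a summit 149 bp upstream shared with C34B7.1, and rpl-25.1 was not bound. The proteins of rpl-24.1 and rpl-24.2 share only 25.4% of residues, and both genes were bound. That identity is close to the 23.6% of rpl-25.2 and rpl-28, which have different numbers. Identity over the whole alignment thus does not set this pair apart, and whether the 2 proteins are related was not tested. The peak of rpl-24.1 ranked 222 (168 and 333 in the replicates) and that of rpl-24.2 ranked 320 (482 and 250), so the replicates put them in opposite order. The stalk proteins of rla-1 and rla-2 are 45.2% identical, with rla-2 bound and rla-1 not. Reads from copies could be misplaced only where sequence repeats, and 44 of the 50 promoter windows consisted wholly of 36-base stretches found once in the genome. The 6 that did not include both genes of the pair with identical proteins, rpl-41.1 at 98.6% and rpl-41.2 at 96.2%. The 2 below 90% were rpl-7A, bound, at 72.8% and rpl-37, not bound, at 87.1%.

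The 7 genes without an optimal peak in their window were rla-1, rpl-11.1, rpl-16, rpl-25.1, rpl-27, rpl-37 and rpl-42. Of these, rla-1, rpl-16, rpl-25.1 and rpl-27 each start 97 to 119 bp behind a gene on the same strand. For each of these 4 the next optimal peak upstream lay just before the start of that leading gene. At rla-1 the peak lay 321 bp upstream of Y37E3.8 and ranked 816, with 565 and 983 in replicates 1 and 2. At rpl-16 it lay 275 bp upstream of lias-1, ranked 1098, and 724 and 1259 in the replicates. At rpl-25.1 it lay 154 bp upstream of glit-1 and ranked 233, with 171 and 369 in the replicates. At rpl-27 it lay 165 bp upstream of C53H9.2 and ranked 911, with 1186 and 716. These summits were 1353, 1772, 3053 and 2151 bp from the starts of rla-1, rpl-16, rpl-25.1 and rpl-27, outside the window in each case. Among all 3219 unbound protein-coding genes in the same arrangement, 1045 (32.5%) had a bound gene in the run of close same-strand genes before them. A stronger peak of rank 78 also lay 717 bp past the start of rpl-27, beyond the end of that gene. The windows of phb-1, dnj-14 and C53H9.3 held the peaks at rla-1, rpl-25.1 and rpl-27 as well, so those peaks have other candidate genes. Only rpl-19 of the 5 large subunit genes that lie within 500 bp of a same-strand upstream gene had its own peak, at rank 1131, with a gap of 364 bp to that gene. Of all 3612 protein-coding genes in that arrangement 10.9% were bound. All 5 of the large subunit genes were bound themselves or lay behind a bound gene, against 39.8% of the 3612.

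Of the 4 peaks before a leading gene, the sequences of those at lias-1 and glit-1 are shown, as these lie on chromosomes III and X, whose sequence is also printed above. They lie at chrIII:3505301-3505451 (minus strand) and chrX:4712050-4712200 (plus strand), with the same capitals and source.
lias-1 peak, upstream of rpl-16: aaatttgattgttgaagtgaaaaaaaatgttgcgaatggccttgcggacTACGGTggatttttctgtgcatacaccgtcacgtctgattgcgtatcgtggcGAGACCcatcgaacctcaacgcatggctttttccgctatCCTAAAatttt
glit-1 peak, upstream of rpl-25.1: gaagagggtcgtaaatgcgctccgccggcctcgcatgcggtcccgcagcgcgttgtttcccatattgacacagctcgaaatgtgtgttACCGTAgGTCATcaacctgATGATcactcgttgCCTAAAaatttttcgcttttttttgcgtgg
The lias-1 peak holds all 3 of the 6-base words and no SKN-1 half-site. The glit-1 peak holds ACCGTA and then CCTAAA, with both half-sites. Of the 2 peaks not printed, that before Y37E3.8 holds GAGACC and then ACCGTA, with 1 ATCAT, and that before C53H9.2 holds GAGACC and then CCTAAA, with no half-site. At least 1 of the words was thus in 4 of the 4 peaks, against 20.1% of promoter peaks of other genes, and either half-site in 2, against 42.5% of all optimal peaks. The words were not confined to bound sites. The 151 bases at the pooled summit of rpl-11.1, not bound, held CCTAAA 2 times and no half-site. At the unbound genes themselves, at least 1 word was found for rla-1, rpl-11.1, rpl-25.1, rpl-37 and rpl-42, and none for rpl-16 and rpl-27. The stretch searched there was not the 151 bases at a summit, as at rpl-11.1 it held ACCGTA 1 time and CCTAAA 3 times. No share of all genes is given for that stretch, so whether words were more frequent at these genes cannot be read from it.

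**Figure D3:**
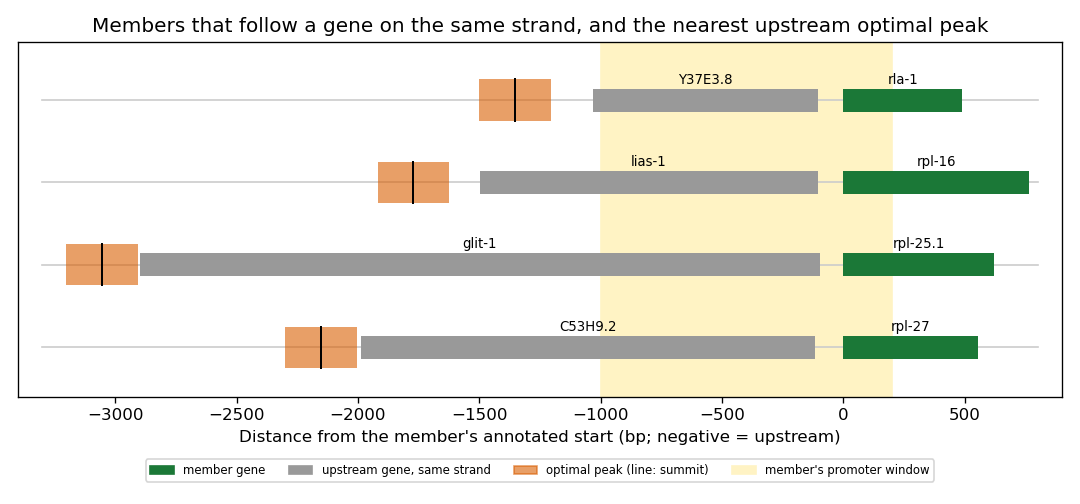
Positions of the 4 unbound genes that follow a same-strand gene, of that leading gene and of the nearest upstream optimal peak with its summit line, in bp from the annotated start of the large subunit gene, drawn to scale with transcription running rightwards. Every peak lies to the left of the leading gene and outside the shaded promoter window, at 1353 to 3053 bp.

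Counting a peak before the leading gene for the genes behind it, 47 of the 50 large subunit genes (94.0%) had one, against 20.3% of all protein-coding genes. Among the 45 genes in any other arrangement 42 were bound (93.3%), against 16.0% of all genes so arranged. Whether each pair is transcribed together was not tested. The remaining unbound genes were rpl-11.1, described above, rpl-37 and rpl-42. The gene rpl-37 is nested in pitp-1, had no region of the pooled list in its window, and had its next upstream optimal peak 18520 bp away. At rpl-42 a pooled region of rank 9073 lay 839 bp upstream, with ranks of 15251 and 9126 in replicates 1 and 2. Some region of the pooled list, background included, lay in the window of 46 of the 50 genes, against 44.7% of all genes.

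Other genes of the ribosome were counted in the same way. Small subunit genes, named rps, were bound in 30 of 31 cases (96.8%, interval 83.8% to 99.4%), with a median rank of 492 and a median distance of 290.5 bp. Genes for the mitochondrial large subunit, named mrpl, were bound in 19 of 41 cases (46.3%, interval 32.1% to 61.3%), with a median rank of 1225 and a median distance of 158 bp. Of 15 names of 60S assembly and nucleolar genes 12 were in the annotation and 10 of those were bound (83.3%, interval 55.2% to 95.3%). Their median rank was 1065 and their median distance 178 bp. The highest were eif-6 (rank 286), the gene of the anti-association factor, fib-1 (rank 342), the nucleolar methyltransferase fibrillarin, and lpd-7 (rank 350), whose peak is that of rpl-9. The lowest was nst-1 (rank 2871). The unbound ones were pro-2 and pro-3. The interval of the large subunit genes overlaps that of the small subunit genes and lies above that of the mitochondrial genes.

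**Figure D4:**
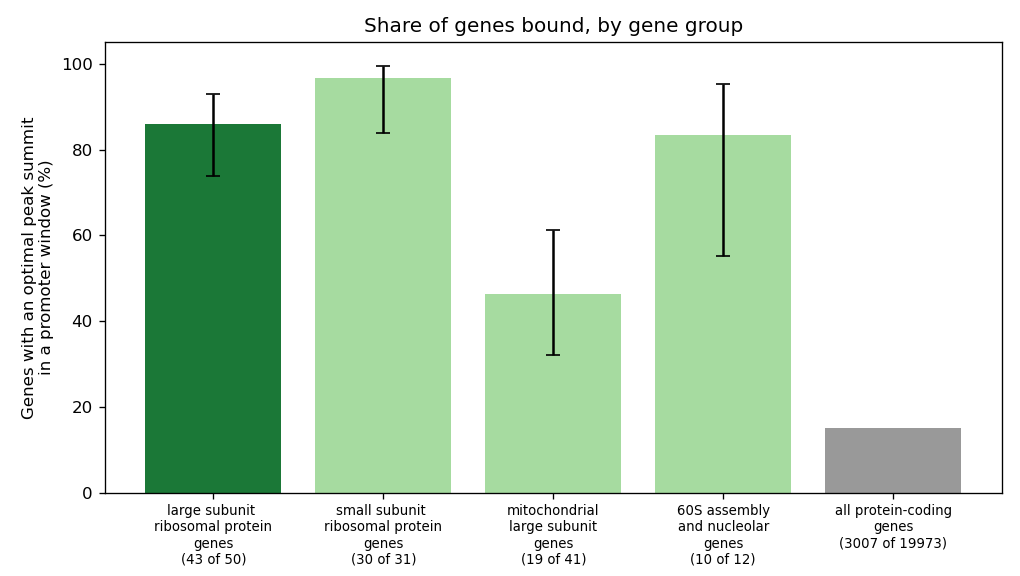
Percentage of genes called bound for the large subunit genes, small subunit genes, mitochondrial large subunit genes, 60S assembly and nucleolar genes, and all protein-coding genes; bars are shares and error lines 95% Wilson intervals that cover the counting of genes only. The large subunit genes reach 86.0% and all protein-coding genes 15.1%.

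Short sequences known from SKN-1 and other factors were counted on both strands within 75 bp of each summit, and the same was done for all optimal peaks and for windows of equal length centred 284 bp upstream of every protein-coding gene. That distance is the median of the 43 bound large subunit genes, so these windows were placed by the large subunit genes' own values. The half-site GTCAT was in 4 of the 43 peaks (9.30%, interval 3.68% to 21.6%), against 24.97% of all optimal peaks and 20.05% of promoter windows. The half-site ATCAT was in 7 (16.3%), against 27.1% and 32.0%. Among other promoter peaks GTCAT was in 22.7% and ATCAT in 24.3%. Either was in 10 of the 43 (23.3%), against 42.5% of all optimal peaks and 44.7% of promoter windows. The longer SKN-1 site, TGTCAT or TATCAT after 2 bases that are A or T, was in 1 peak (2.33%), against 9.39% of all optimal peaks and 8.46% of promoter windows. That peak was at rpl-10, which held 3 half-sites. Within 150 bp of the summit the longer site was in 5 peaks (11.6%), against 16.2% of all optimal peaks. Longer sites contain the half-sites, so these counts overlap. At rpl-11.2 there were 2 copies of GTCAT, visible in its sequence above. Of the other motifs, the AP-1 type site TGACTCA was in none of the 43 (2.27% of all optimal peaks), and the E-box CACGTG was in 1 (6.11%). The GATA-type site GATAA was in 9 (20.9%, against 22.7% of all optimal peaks). The motifs GAGAGAG and CTGCGTC were each in 1 (2.33%), against 17.3% and 14.2% of all optimal peaks, and TTTCAATT was in 1, against 3.13%. A match describes letters in a window and is no evidence that a factor binds there.

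The 6-base words were picked after the peaks had been seen, by the difference in share between the 43 peaks and the other promoter peaks. Going down from the largest difference, a word was passed over where it shared 4 or more bases in a row, on either strand, with one already taken. AGACCC (41.9%, against 6.21%) and CGAGAC (48.8%, against 13.5%) were passed over in this way, as both overlap GAGACC, although they differed more than the last word taken, CCTAAA. The words were thus chosen on these peaks, so their shares among the 43 are a description of that choice. The word GAGACC, or GGTCTC on the other strand, was in 22 of the 43 (51.2%), against 10.2% of 2126 other promoter peaks and 4.29% of promoter windows. The word ACCGTA, read on the other strand as TACGGT, was in 20 (46.5%), against 8.37% and 4.52%. The word CCTAAA, read on the other strand as TTTAGG, was in 16 (37.2%), against 4.28% and 7.35%. At least 1 of the 3 was in 34 peaks (79.1%), and rpl-21, rpl-17 and rpl-19 had all 3. The 27 peaks of small subunit genes that no large subunit gene shared took no part in the choice. They held GAGACC in 12 (44.4%), ACCGTA in 10 (37.0%) and CCTAAA in 10 (37.0%), and at least 1 of the 3 in 19 (70.4%), against 20.1% of the other promoter peaks.

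Within the 43 peaks each word kept mostly to 1 orientation relative to the gene. GAGACC read as GGTCTC on the gene's strand in 19 of 23 occurrences, ACCGTA read forwards in 15 of 20, and CCTAAA read forwards in 13 of 17. Since the peaks between divergent genes have a gene on either side, this strand is that of the large subunit gene only. The words also stood at different places, with median distances upstream of the start of 272 bp for GAGACC, 317.5 bp for ACCGTA and 207 bp for CCTAAA. From the summit the medians were 13, 22.5 and 58 bp. Only matches within 75 bp of the summit were measured, so these medians are bounded by that width. CCTAAA was in 37.2% of the peaks within 75 bp and in 53.5% within 150 bp, so matches farther out are missing from its medians. The 9 peaks with none of the words were those of rpl-35, rpl-12, rpl-24.2, rpl-9, rpl-32, rpl-36.A, rpl-25.2, rpl-10 and rpl-41.1, which include the gene at rank 38 and that at rank 1779. G and C made up 45.1% of the bases within 75 bp of the summit in the 43 peaks, against 42.9% in other promoter peaks and 34.4% in the fixed promoter windows. The other promoter peaks numbered 2260 here, a larger set than the 2126 used for the words.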

How the data were processed

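The labels give 1 group with 2 biological replicates of immunoprecipitated DNA, with fragments of 150 to 350 bp. Per the deposited readme, the authors made a region list for each replicate and for both pooled, against 1 control alignment, and an optimal list thresholded on the irreproducible discovery rate. The signal value per region is as deposited by the authors, compares regions within 1 list only and was used to rank them. The aligner and caller, the threshold and the strain of the control were not given in the sources used here. The depth is unknown, and the control was not analysed here. The ce10 lists were not used. The genes and the lists of other genes and motifs were chosen with earlier results of these data known. Starts of every transcript came from Ensembl release 115. Genes with values given in full were the 12 bound genes of highest signal, every unbound gene, paralogue pairs, genes on X from 0.5 to 3 Mb, the 3 bound genes of lowest signal, the 3 each way with the largest rank ratio between replicates, and the 3 farthest summits. Names outside this rule were chosen after their values were seen. No comparison between groups was tested, since there is 1 group, and intervals are Wilson 95% intervals that cover counting only. Python 3.11.15, numpy 2.4.6, scipy 1.17.1, biopython 1.88 and matplotlib 3.10.9 were used. Alternatives were the window, the starts used, the strength threshold, the list, the nearest gene and the motif window.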

Additional observations from a re-analysis of the deposited data

How the results depend on the processing

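The number of bound large subunit genes was 30 with the 696 strongest peaks only and 26 with each peak given to its nearest gene only, and 40 to 47 under the other alternatives. The median rank of their peaks was 503 and moved to 379.5 with the 1742 strongest peaks, 526.5 with the whole pooled list, 445 with the outermost start of each gene only and 379.5 with the nearest gene only. With either replicate left out it was 482 to 515. The median distance was 284 bp, and became 287 bp with the outermost start only, 248.5 bp with the nearest gene only and 284 to 286 bp with either replicate left out. These medians were set against the difference between the 2 replicates, which for the distance was 1.41 bp (SD), so small moves count. Within 150 bp of the summit ATCAT was in 37.2% of the peaks, against 47.9% of all optimal peaks, and GTCAT in 16.3%, against 39.2%. At that width GATAA was in 55.8%, against 47.1%, and TTTCAATT in 16.3%, against 9.85%, so both were above the share of all optimal peaks there and below it within 75 bp. The longer SKN-1 site was in 11.6%, against 16.2%, and within 50 bp TTTCAATT was in 0%. The 6-base word CCTAAA, chosen after seeing the data, was in 16.3% within 50 bp and 53.5% within 150 bp. Its share of other promoter peaks at those widths is not given here, and a longer window holds any word more often. Counting starts of coding transcripts only, leaving out rpl-11.2 and counting the leading gene's start were also added after seeing the data, and gave 43, 42 and 47 bound genes. Names starting with rpla added no gene, so that alternative gave no value. No paired analysis was possible because there is 1 group and nothing is compared between groups. The depth of the libraries is unknown, so a gene without a peak is one without a peak on these lists.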

Other observations

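Small nucleolar RNA genes lay inside 8 of the 50 large subunit genes, 12 in all and each on the strand of its host. Small nucleolar RNAs guide the chemical modification of ribosomal RNA, and in animals many are cut from introns of their hosts. The 8 hosts were rpl-2, rpl-4, rpl-6, rpl-7, rpl-7A, rpl-15, rpl-24.1 and rpl-26, and all 8 were among the 43 bound genes. Their ranks ran from 92 at rpl-15 to 1464 at rpl-26. Of the 50 genes 86.0% were bound, so the share among these 8 is close to that of the whole group.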
